A study of Mus musculus with 6 samples.

Results

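Genes of Schwann cells and the neural crest, 8 of the 38561 genes in the count tables, were followed through the series: Sox10, Mbp, S100b, Foxd3, Erbb3, Ngfr, Prx and Cnp. They were picked by symbol for their roles in glia, and each symbol matched exactly 1 Ensembl gene ID. The RNA came from mice of mixed background with the genotype NG2-Cre;p53flox/flox, in which the promoter of Cspg4, which encodes the proteoglycan NG2, drives a Cre that deletes floxed p53 (Trp53). All 3 groups, including the normal cells, carried this genotype, and each had 2 libraries. NG2 cells were perivascular cells sorted from normal skeletal muscle with an antibody to NG2. Osteosarcoma 1 arose in the right tibia and osteosarcoma 2 in the lumbar spine, and both soft tissue sarcomas lay in subcutaneous tissue. Ages were not given, nor whether the libraries of a group came from separate animals, so p-values measure the spread between these libraries, which may be technical.

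Schwann cells are the glia of peripheral nerves and descend from the neural crest, a migratory population of the embryo. SOX10 sets and keeps their identity, axons drive their growth and myelination through neuregulin acting on the ERBB2/ERBB3 receptor pair, and the zinc finger factor EGR2 switches on myelin genes such as Mbp and Prx. Foxd3 marks crest cells and early glia, and Ngfr and S100b are widely used labels of Schwann cells. NG2 is made by pericytes and, in glia, by oligodendrocyte precursors and some cells of peripheral nerve.

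The stretches upstream of 3 of the genes are shown, 1 for each pattern described below: Foxd3 was at or near 0 in both tumour types, S100b was kept by 1 osteosarcoma, and Prx is a myelin gene that passed edgeR's test in no comparison. Each runs 5′ to 3′ over the 250 bases before the RefSeq start on the plus strand (build GRCm38.p6), at chr4:99656049-99656298 for Foxd3, chr10:76253586-76253835 for S100b and chr7:27499074-27499323 for Prx. Capitals mark CG pairs.
Foxd3: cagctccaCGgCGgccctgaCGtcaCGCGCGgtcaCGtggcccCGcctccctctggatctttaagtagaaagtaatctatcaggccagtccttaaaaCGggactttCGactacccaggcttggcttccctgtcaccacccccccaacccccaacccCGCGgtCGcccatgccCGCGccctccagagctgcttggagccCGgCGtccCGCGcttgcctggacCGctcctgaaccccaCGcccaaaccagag
S100b: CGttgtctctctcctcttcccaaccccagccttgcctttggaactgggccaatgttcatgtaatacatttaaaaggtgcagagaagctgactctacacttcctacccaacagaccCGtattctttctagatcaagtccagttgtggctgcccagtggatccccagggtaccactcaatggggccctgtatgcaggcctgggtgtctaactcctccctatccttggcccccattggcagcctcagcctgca
Prx: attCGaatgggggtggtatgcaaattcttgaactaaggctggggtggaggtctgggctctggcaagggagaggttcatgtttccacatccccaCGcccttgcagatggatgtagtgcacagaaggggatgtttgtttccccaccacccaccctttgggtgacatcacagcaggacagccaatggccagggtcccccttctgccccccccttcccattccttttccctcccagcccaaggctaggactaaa
The Foxd3 stretch held 21 CG pairs and 65.6% G or C, against 2 pairs and 53.6% for S100b and 2 pairs and 56.4% for Prx. Over 32851 mouse promoters of the same length the median was 6 pairs (quartiles 2 and 16) and 52.4% (quartiles 45.2% and 61.2%). Promoters were read for 5 of the 8 genes, the others of the 5 being Ngfr, with 16 pairs, and Cnp, with 13. Those of Sox10, Mbp and Erbb3 were not read, which does not mean that RefSeq lacks them. The core letters of the SOX motif, ACAAAG or ACAATG on either strand, occurred upstream of 1 of the 5, Cnp, and upstream of 25.2% of all promoters.

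The libraries held 27693585 to 58126832 counts in genes. Trp53 fell in both tumour types, from 101 and 82.3 CPM (counts divided by the scaled library size and brought to a common total) in NG2 cells to between 24.3 and 32.6 CPM in the 4 tumours (adjusted p = 0.0172 for osteosarcoma and 0.0199 for soft tissue sarcoma, edgeR). Cspg4, the gene of the sorting antigen, stood at 38.6 and 30.6 CPM in NG2 cells and at 37.7 to 188 CPM in the tumours, and passed in no comparison. The NG2 libraries also held immune transcripts: 5 B cell markers summed to 4371 and 1377 CPM there and to 0.96 to 8.46 CPM in the tumours, and 5 T cell markers to 348 and 499 CPM against 5.02 to 23.1 CPM. Xist, the RNA of the inactive X chromosome, stood at 347 and 488 CPM in the NG2 libraries, at 54.2 and 204 CPM in osteosarcomas and at 0.0839 and 0.135 CPM in soft tissue sarcomas, so the groups did not match in this marker of sex. By the names of the deposited tables, each group was sequenced on a lane of its own, so lane and group cannot be told apart.

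Sox10, Foxd3, Erbb3 and Mbp were high in both NG2 libraries and fell to a few percent of that level, or to 0, in soft tissue sarcoma; all but Sox10 also fell in osteosarcoma. S100b and Ngfr were kept by the osteosarcoma of the spine and low in that of the tibia. Prx and Cnp passed edgeR's test in no comparison. All 8 genes passed the filter on low counts, but Sox10 and Foxd3 reached its level of 0.238 CPM in both libraries of the NG2 cells alone, so they could enter the test only by being high there. By edgeR's quasi-likelihood test at an adjusted p under 0.05, 3 of 8 fell in osteosarcoma against NG2 cells, where 11% of the 19024 tested genes fell and 10.5% rose, and 4 of 8 fell in soft tissue sarcoma, where 9.4% fell and 9.89% rose. None of the 8 rose. Foxd3 among the 3, and Sox10 and Foxd3 among the 4, entered the test only through the NG2 cells, so their falls are descriptions. The 4 calls in soft tissue sarcoma were lost without either soft tissue sarcoma library, where edgeR called 0 genes in all (4611 and 4372 had an unadjusted p under 0.05), and those of Sox10, Foxd3 and Erbb3 also without either NG2 library. Their median log2 fold change was -2.49 in osteosarcoma and -4.17 in soft tissue sarcoma, against 0.04 and 0 over all tested genes. These comparisons share the NG2 libraries. Between the tumour types 0 of 8 passed, where 0.0841% of tested genes were higher and 0.0578% lower in soft tissue sarcoma; 2 of the 8 had an unadjusted p under 0.05, as had 15.9% of all tested genes, and DESeq2 called 2, and 9.75% of all tested genes. In bulk RNA, fewer cells of a type and less RNA per cell cannot be told apart.

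**Figure D1:**
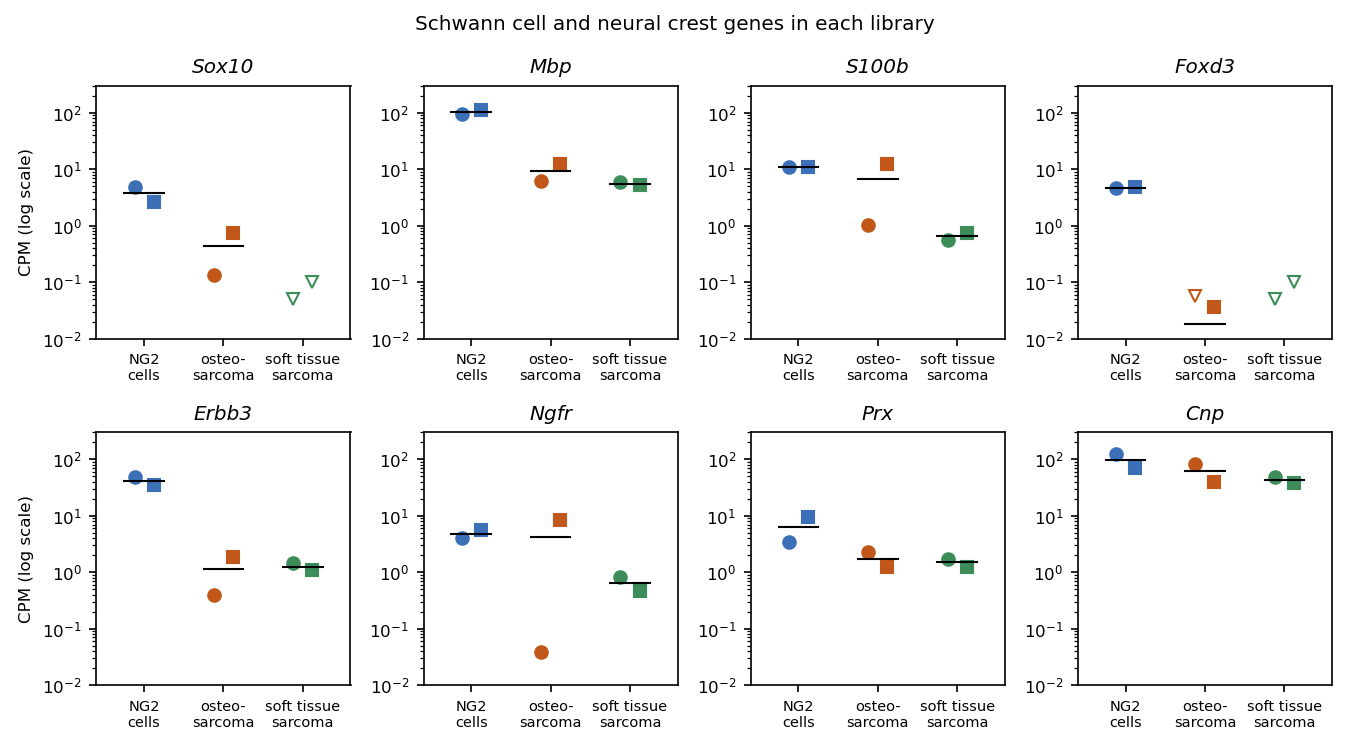
Normalised read counts (CPM, log axis) of the 8 genes in each library, with circles for replicate 1, squares for replicate 2 and a line at the mean of 2; an open triangle marks a library with 0 counts, drawn at the level of 3 counts. Sox10, Mbp, Foxd3, Erbb3 and Prx lie lower in all 4 tumours than in both NG2 libraries. The osteosarcomas stand apart from each other in S100b (1.04 and 12.3 CPM) and Ngfr (0.0379 and 8.53 CPM).

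Sox10 (ENSMUSG00000033006, chr15:79154908-79165240, minus strand, build GRCm38, as for all genes below) encodes the transcription factor that defines the glial lineage of the crest. It stood at 4.88 and 2.64 CPM in the NG2 libraries, at 0.133 and 0.747 CPM in the osteosarcomas, and had 0 counts in both soft tissue sarcomas. The 3 groups did not overlap, and no soft tissue sarcoma read was assigned to the gene, where 3 counts over that group would be 0.0336 CPM. Sox10 fell at least 112-fold in soft tissue sarcoma (adjusted p = 0.0254, edgeR), a description, since it passed the filter only through the NG2 cells. In osteosarcoma its log2 fold change of -3.11 ± 1.19 (SE) did not pass (adjusted p = 0.122, edgeR), and osteosarcoma 2 held 5.63 times the level of osteosarcoma 1. Between the tumour types Sox10 was at least 13.1-fold lower in soft tissue sarcoma and did not pass with edgeR (adjusted p = 0.18), but did with DESeq2 (adjusted p = 0.0145).

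Foxd3 (ENSMUSG00000067261, chr4:99656299-99658622, plus strand) encodes a forkhead factor of early crest cells and glial precursors. It had 167 and 212 counts in the NG2 libraries, 0 and 1 in the osteosarcomas and 0 in both soft tissue sarcomas. In CPM this was 4.63 and 4.86 against at most 0.0356, so the NG2 libraries agreed within a ratio of 0.952 while all 4 tumours were at or near 0. It fell in osteosarcoma, where NG2 cells held 385 times the level (95% counting interval 68.6 to 15230; adjusted p = 0.0245, edgeR), and at least 141-fold in soft tissue sarcoma (adjusted p = 0.0213, edgeR). Both falls are descriptions, since Foxd3 passed the filter only through the NG2 cells. The osteosarcoma call was lost with the replicate number as a block (adjusted p = 0.0506, edgeR) and without NG2 library 1 or 2.

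The receptors differed from each other. Erbb3 (ENSMUSG00000018166, chr10:128567523-128589652, minus strand) encodes the neuregulin receptor on which Schwann cell survival depends. It was at 48.9 and 35.4 CPM in the NG2 libraries, at 0.398 and 1.85 CPM in the osteosarcomas, and at 1.44 and 1.08 CPM in the soft tissue sarcomas. Every tumour lay far under both NG2 libraries, and the tumour types overlapped. Erbb3 fell 38.2-fold in osteosarcoma (-5.25 ± 0.84 on the log2 scale, adjusted p = 0.0137, edgeR) and 33.2-fold in soft tissue sarcoma (-5.06 ± 0.83, adjusted p = 0.0162, edgeR). The osteosarcoma call was lost without NG2 library 1 (adjusted p = 0.054, edgeR), and the difference between tumour types was 0.20 ± 0.73 on the log2 scale (adjusted p = 0.936, edgeR).

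Ngfr (ENSMUSG00000000120, chr11:95568818-95587735, minus strand) encodes p75, a receptor of neurotrophins that immature and injured Schwann cells display. It was at 4.05 and 5.66 CPM in the NG2 libraries and at 0.822 and 0.472 CPM in the soft tissue sarcomas. The osteosarcomas stood on either side of these, at 0.0379 CPM in the tibia tumour and 8.53 CPM in the spine tumour, a ratio of 225. The spine tumour exceeded both NG2 libraries, so osteosarcoma and NG2 cells overlapped. No comparison of Ngfr passed: the log2 fold change was -0.18 ± 1.72 in osteosarcoma (adjusted p = 0.95, edgeR) and -2.89 ± 1.86 in soft tissue sarcoma (adjusted p = 0.302, edgeR). Both depended on osteosarcoma libraries, which share the estimate of spread. Without osteosarcoma 2 the log2 fold change in osteosarcoma was -6.90 and was called (adjusted p = 0.0251, edgeR), and without osteosarcoma 1 it was 0.78. The call in soft tissue sarcoma passed without osteosarcoma 1 or 2 (adjusted p = 0.0312 and 0.0441, edgeR) and in a model of the 2 groups alone (adjusted p = 0.0367).

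S100b (ENSMUSG00000033208, chr10:76253853-76261159, plus strand) encodes a calcium-binding protein abundant in glia, made also by cartilage and fat cells. It was at 11.1 CPM in both NG2 libraries, at 1.04 and 12.3 CPM in the osteosarcomas and at 0.554 and 0.741 CPM in the soft tissue sarcomas. The spine osteosarcoma lay close to the NG2 cells (111% of their mean; 176% for Ngfr), and the tibia osteosarcoma at 9.39%. S100b did not pass in osteosarcoma (log2 fold change -0.74 ± 1.05, adjusted p = 0.636, edgeR) but was called there without osteosarcoma 2 (-3.41, adjusted p = 0.038, edgeR). In soft tissue sarcoma the fold change of -4.10 ± 1.19 on the log2 scale missed the threshold (adjusted p = 0.0604, edgeR). It passed there with DESeq2 (adjusted p = 0.000984), with no filter on low counts (0.0367, edgeR), in a model of the 2 groups alone (0.00834, edgeR) and without osteosarcoma 1 or 2 (0.0082 and 0.0103, edgeR).

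Markers of other cell types also differed between the osteosarcomas, in both directions. From osteosarcoma 1 to 2 the sum of osteoblast markers changed 7.87 times, through Ibsp (439 and 17590 CPM) and Alpl (407 and 1103 CPM). Bglap (1235 and 37.8 CPM), Dmp1 (185 and 62.0 CPM) and Sp7 (134 and 84.6 CPM) were lower in osteosarcoma 2. Pericyte and mural cell markers changed 2.86 times, with Cspg4 alone lower in osteosarcoma 2 (118 and 37.7 CPM). Endothelial markers changed 2.53 times. Adipocyte markers changed 2.51 times, almost all of it Fabp4 (19.8 and 49.1 CPM). Plin1, Cidec and Lep had 0 counts in both osteosarcomas. The sums of fibroblast (0.127 times), epithelial (0.093 times) and B cell markers (0.539 times) were lower in osteosarcoma 2. Muscle fibre markers summed to 997 CPM in osteosarcoma 2 and 4.81 CPM in osteosarcoma 1, a ratio of 207, and Acta1, the actin of skeletal muscle fibres, led the sum with 859 and 3.77 CPM. Of the 4 chondrocyte markers detected, Col2a1 (12.3 and 53.6 CPM in osteosarcoma 1 and 2), Acan (1.88 and 7.86 CPM) and Col9a1 (0.265 and 2.88 CPM) were also higher in osteosarcoma 2. Col11a2 was lower there (485 and 24.1 CPM) and carried the list's sum, which was 499 and 88.5 CPM. Sox10 (ratio 5.63), Erbb3 (4.65) and Mbp (1.96) were also higher in osteosarcoma 2, whereas Prx (0.552) and Cnp (0.496) were lower. The part of these other cell types in the levels of S100b and Ngfr was not tested.

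The myelin genes split as well. Mbp (ENSMUSG00000041607, chr18:82475146-82585637, plus strand) encodes myelin basic protein, which compacts the myelin sheath. It was at 96.7 and 112 CPM in the NG2 libraries, 6.25 and 12.3 CPM in the osteosarcomas, and 5.84 and 5.26 CPM in the soft tissue sarcomas. NG2 cells lay far above every tumour, and the 2 tumour types did not overlap but were close. Against NG2 cells, Mbp was 11.3-fold lower in osteosarcoma and fell (-3.49 ± 0.42 on the log2 scale, adjusted p = 0.0078, edgeR) and 18.8-fold lower in soft tissue sarcoma, where it fell too (-4.23 ± 0.44, adjusted p = 0.00863, edgeR). The locus also gives rise to golli transcripts in immune cells, and counts per gene do not separate these from the myelin forms. From NG2 library 2 to library 1 the B cell markers differed 3.17 times, the T cell markers 0.697 times and Mbp 0.866 times; the part of immune cells in the fall of Mbp was not tested.

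Prx (ENSMUSG00000053198, chr7:27499324-27520214, plus strand) encodes periaxin, a scaffold between the myelin sheath and the Schwann cell surface. It was at 3.41 and 9.47 CPM in the NG2 libraries, 2.25 and 1.24 CPM in the osteosarcomas, and 1.75 and 1.25 CPM in the soft tissue sarcomas. Every tumour lay under both NG2 libraries, which themselves differed by a ratio of 0.36. The log2 fold changes of -1.87 ± 0.79 in osteosarcoma (adjusted p = 0.136, edgeR) and -2.10 ± 0.80 in soft tissue sarcoma (adjusted p = 0.112, edgeR) did not pass; DESeq2 called the latter (adjusted p = 0.0293). The antisense gene Gm15541 overlaps 5.4% of the Prx exons, and without a stated strand setting their reads cannot be told apart.

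Cnp (ENSMUSG00000006782, chr11:100574904-100591729, plus strand) encodes a phosphodiesterase of uncompacted myelin that many other cells make at a lower level. It was at 124 and 70.6 CPM in the NG2 libraries, 81.7 and 40.5 CPM in the osteosarcomas, and 48.1 and 38.0 CPM in the soft tissue sarcomas. NG2 cells and osteosarcomas overlapped, and the soft tissue sarcomas lay just below the NG2 libraries. Its log2 fold changes were the smallest in size of the myelin genes among the 8, at -0.67 ± 0.45 in osteosarcoma (adjusted p = 0.316, edgeR) and -1.17 ± 0.45 in soft tissue sarcoma (adjusted p = 0.117, edgeR). The opposite-strand gene Dnajc7 shares 4.2% of the Cnp exons.

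**Figure D2:**
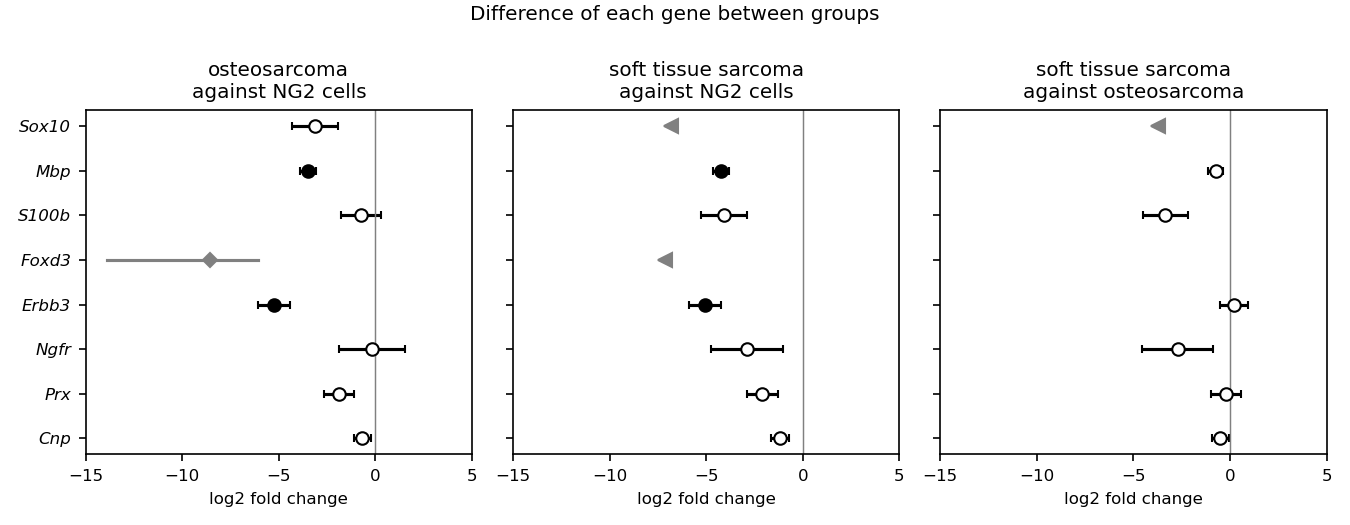
Log2 fold change with its SE for each gene in the 3 comparisons, except Foxd3 between the tumour types (0 and 1 counts), which is not drawn. Filled circles are genes that passed edgeR's test and open circles those that did not. Grey arrowheads are bounds against a group with 0 counts. The grey diamond with its line is the ratio of Foxd3 counts with the 95% counting interval. Of the bounds and the diamond, all passed but Sox10 between the tumour types, and no gene passed in that comparison.

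Between the tumour types the log2 difference, soft tissue sarcoma minus osteosarcoma, was -3.36 ± 1.16 for S100b (adjusted p = 0.246, edgeR; 0.0285 with DESeq2) and -0.74 ± 0.39 for Mbp (adjusted p = 0.422, edgeR). For Ngfr it was -2.71 ± 1.85 (adjusted p = 0.531, edgeR), and it turned to 4.01 without osteosarcoma 2. Prx and Cnp differed by -0.23 ± 0.77 and -0.50 ± 0.45 (adjusted p = 0.928 and 0.646, edgeR), and both turned positive, to 0.28 and 0.10, without osteosarcoma 1. Erbb3 turned to -0.53 without osteosarcoma 1 and to -0.03 without soft tissue sarcoma 1.

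Per length of exon, the order of levels in NG2 cells ran from Cnp at 26.7 ± 10.3 CPM per kb (SD, n = 2), Mbp at 12.3 ± 1.25, S100b at 7.48 ± 0.00679, Erbb3 at 7.01 ± 1.58 and Foxd3 at 2.04 ± 0.071 to Ngfr at 1.41 ± 0.332, Sox10 at 1.23 ± 0.519 and Prx at 1.15 ± 0.768 CPM per kb. S100b and Erbb3 did not differ beyond their spread, nor did Ngfr, Sox10 and Prx. In soft tissue sarcoma Cnp led with 11.8 ± 1.97 CPM per kb, and the next, Mbp, stood at 0.655 ± 0.0486 CPM per kb. In osteosarcoma Cnp stood at 16.8 ± 8.0 CPM per kb, above S100b at 4.48 ± 5.35, Ngfr at 1.24 ± 1.74 and Mbp at 1.09 ± 0.502 CPM per kb. The spread of S100b covered Ngfr and Mbp but not Cnp, and that of Ngfr covered Mbp.

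Likeness was measured over the 6 libraries as the root mean square difference of centred log2 CPM profiles, among 14919 protein-coding genes. Within the set the closest pairs were Foxd3 with Erbb3 (0.789 log2 units), Prx with Cnp (0.793) and Mbp with Erbb3 (0.885). Closest to Sox10 was Cecr2 (0.392), to Mbp Serpina1e (0.166), to S100b Stac (0.291) and to Foxd3 Cytl1 (0.284). Serpina1e (0.803 and 1.17 CPM in the NG2 libraries) and Stac (0.554 and 0.688 CPM) were themselves near the floor. A prior count of 2 was added before the log, which shrinks differences at such low levels. Next to Mbp came Il4i1 (0.234) and Gimap8 (0.247), and next to S100b Pip5k1b (0.307), all at higher levels. Closest to Erbb3 was Ppp1r16b (0.308), to Ngfr Pdlim3 (0.284), to Prx Serpine3 (0.263) and to Cnp H3f3a (0.143). With groups this far apart, many genes share a profile, so these distances are a description.

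The other genes of Schwann cells were read from lists. With all libraries, 11% of all tested genes fell and 10.5% rose in osteosarcoma. In soft tissue sarcoma 9.4% fell and 9.89% rose. The counts of calls in each list are to be read against these shares. As for the 8 genes, calls in soft tissue sarcoma were lost from every list without either of its libraries, and without NG2 library 1 or 2 each list of Schwann cell or crest genes held 0 or 1 call in each direction there, except for 2 neural crest genes that rose without NG2 library 2. Over all tested genes, in osteosarcoma 8.11% fell without osteosarcoma 1, 10% without osteosarcoma 2, 4.33% and 3.92% without NG2 library 1 or 2, and 5.27% and 5.55% without soft tissue sarcoma 1 or 2; 3.14% to 8.6% rose. In soft tissue sarcoma 13.9% and 13.6% fell without osteosarcoma 1 or 2, and 2.13% and 2.24% without NG2 library 1 or 2. The counts of listed genes with a library left out are to be read against these shares. Of the listed genes named below, Cldn19, Pou3f1, Kcna1, Ntf3 and Pax7 reached the filter's level in both libraries of the NG2 cells alone, so, as with Sox10 and Foxd3, they could enter the test only by being high there, and their falls are descriptions. Artn, Gap43 and Cdkn2a, at or near 0 in NG2 cells, likewise entered through the tumours, and their rises are descriptions. Of 15 myelin and paranode genes 14 were tested; 2 fell in osteosarcoma and 4 in soft tissue sarcoma, and none rose. Of these falls, 1 in osteosarcoma and 2 in soft tissue sarcoma were of genes that reached the filter's level in NG2 cells alone. The list's median log2 fold changes were -2.10 and -5.00, and neither these nor the other medians here moved when genes with 0 counts were set at their bounds. Cldn19, a claudin of Schwann cell tight junctions, was at 3.60 and 11.7 CPM in the NG2 libraries, 0.0758 and 0 CPM in the osteosarcomas and 0.0168 and 0 CPM in the soft tissue sarcomas, and fell in both (adjusted p = 0.0239 and 0.0205, edgeR).

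Pllp, encoding the myelin protein plasmolipin, fell 8.53-fold in soft tissue sarcoma (adjusted p = 0.0413, edgeR). In osteosarcoma, 4 of the list fell without osteosarcoma 1, 6 without osteosarcoma 2 and 1 without NG2 library 2 or either soft tissue sarcoma, and in soft tissue sarcoma 10 fell without osteosarcoma 1 or 2.

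Of 10 Schwann cell transcription factors, all tested, 4 fell and 3 rose in osteosarcoma, and 3 fell and 2 rose in soft tissue sarcoma (medians -1.16 and -0.96). Pou3f1, a POU factor of promyelinating Schwann cells, was at 24.4 and 15.6 CPM in NG2 cells and at 0.0356 to 0.185 CPM in the 4 tumours, and fell in osteosarcoma (adjusted p = 0.00507, edgeR) and in soft tissue sarcoma (133-fold, adjusted p = 0.00846, edgeR). Egr2 was at 114 and 160 CPM in NG2 cells and at 2.35 to 8.49 CPM in the tumours, and fell 25.1-fold and 29.7-fold (adjusted p = 0.0136 and 0.0143, edgeR). Egr2 and Id2, an inhibitor of myelin genes that fell 6.15-fold and 3.92-fold (adjusted p = 0.0149 and 0.0294, edgeR), are also active in lymphocytes, whose markers fell with them; their part was not tested. Tead1, a factor of the Hippo pathway, rose 6.54-fold and 10.3-fold (adjusted p = 0.00734 and 0.00846, edgeR). In osteosarcoma 1 of the list fell without NG2 library 2, and 1 rose without either NG2 or either soft tissue sarcoma library.

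Of 12 immature and non-myelinating Schwann cell genes 11 were tested. In osteosarcoma 2 fell and 2 rose, and in soft tissue sarcoma 3 fell and 2 rose (medians -0.70 and -2.43). Of the falls, 0 in osteosarcoma and 2 in soft tissue sarcoma were of genes that reached the filter's level in NG2 cells alone. In osteosarcoma, 4 fell without osteosarcoma 1 and 5 without osteosarcoma 2, against 0 without any one of the other libraries, and only with NG2 library 2 or osteosarcoma 1 left out did any rise, 1 each. L1cam, an X-linked adhesion molecule of non-myelinating Schwann cells and axons, fell 10.4-fold and 15.8-fold (adjusted p = 0.0204 and 0.0165, edgeR). Kcna1, a potassium channel gene, was at 30.3 and 44.5 CPM in the NG2 libraries, 0.0189 and 1.46 CPM in the osteosarcomas and 0 in both soft tissue sarcomas, where it fell at least 1113-fold (adjusted p = 0.032, edgeR). Gap43, a growth-associated protein of axons and immature Schwann cells, went the other way: it was at 0 and 0.206 CPM in the NG2 libraries, 0.474 and 0.924 CPM in the osteosarcomas and 34.8 and 46.7 CPM in the soft tissue sarcomas, where it rose 367-fold (adjusted p = 0.0134, edgeR). Artn, a ligand that supports sensory neurons, had 0 counts in both NG2 libraries; it rose at least 10.3-fold in osteosarcoma and 47.8-fold in soft tissue sarcoma (adjusted p = 0.0392 and 0.0245, edgeR).

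**Figure D3:**
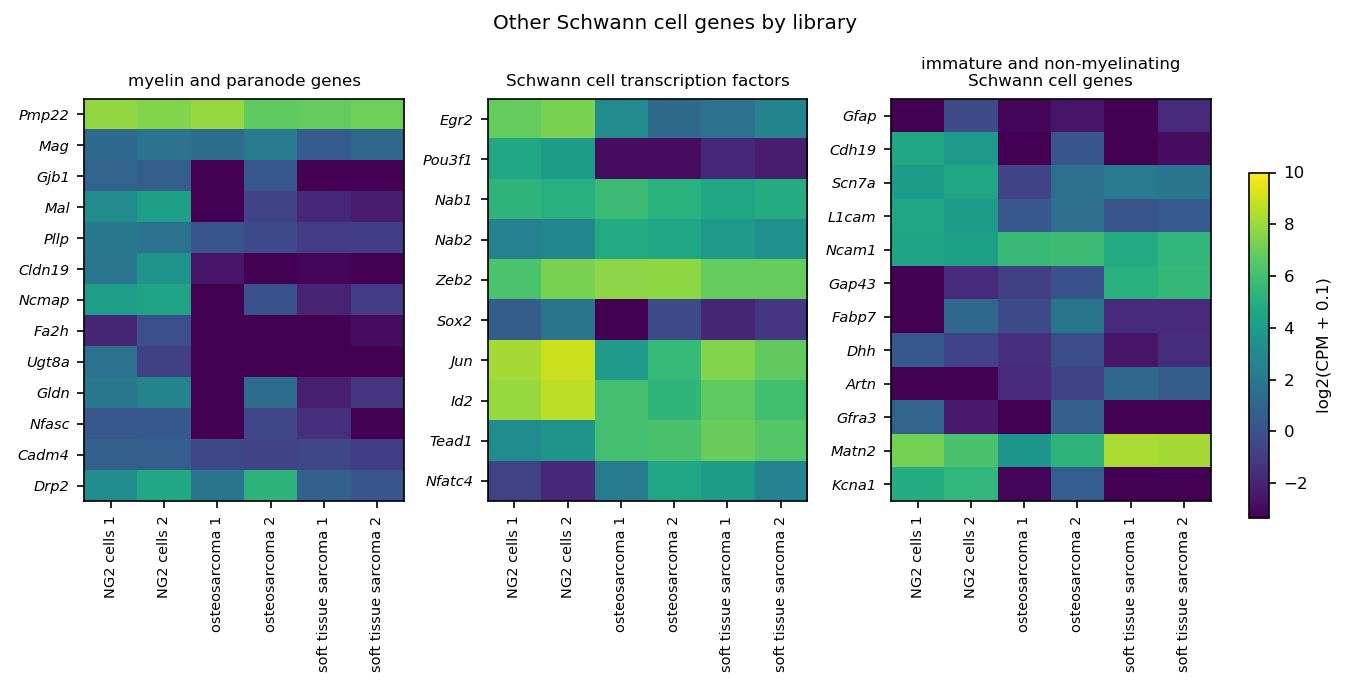
Levels of other Schwann cell genes from 3 lists in each library, as log2(CPM + 0.1), dark for low and yellow for high. Cldn19, Egr2, Pou3f1, L1cam and Kcna1 are bright in the 2 NG2 columns, and Gap43 in the 2 soft tissue sarcoma columns.

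Around the Erbb3 receptor, 9 of 12 neuregulin and axon signal genes were tested; 2 fell in osteosarcoma and 1 rose in soft tissue sarcoma (medians -0.39 and 0.61). In osteosarcoma 4 fell without osteosarcoma 2, 0 without NG2 library 2 and 1 without any other library. Adgrg6, the receptor that starts myelination, was at 11.9 and 15.8 CPM in the NG2 libraries, 1.33 and 0.569 CPM in the osteosarcomas, where it fell 14.4-fold (adjusted p = 0.015, edgeR), and 27.5 and 14.9 CPM in the soft tissue sarcomas (adjusted p = 0.466, edgeR). Lgi4, a secreted Schwann cell ligand, fell 9.41-fold in osteosarcoma (adjusted p = 0.0359, edgeR). Errfi1, an inhibitor of ERBB receptors, rose 6.07-fold in soft tissue sarcoma (adjusted p = 0.027, edgeR). Nrg3 and Erbb4 had 0 counts in every library.

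Around Ngfr, 11 of 13 neurotrophin genes and p75 partners were tested; 2 fell and 1 rose in osteosarcoma, and 1 fell and 2 rose in soft tissue sarcoma (medians 0.53 and 0.86). In osteosarcoma 1 fell without either NG2 or either soft tissue sarcoma library. Ntf3, the neurotrophin made by Schwann cells and muscle, was at 10.5 and 9.01 CPM in NG2 cells and at no more than 0.107 CPM in any tumour, and fell in both types (adjusted p = 0.0322 and 0.0238, edgeR), at least 290-fold in soft tissue sarcoma. Ntrk2, a receptor of BDNF, was at 19.9 and 14.8 CPM in the NG2 libraries and 22.2 and 20.2 CPM in the soft tissue sarcomas, against 0 and 0.107 CPM in the osteosarcomas, where it fell (adjusted p = 0.00914, edgeR). Maged1, which binds the p75 receptor inside the cell, rose 11.6-fold and 10.5-fold (adjusted p = 0.00552 and 0.00846, edgeR).

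Genes of the early neural crest moved in both directions. Of 16 listed, 13 were tested. In osteosarcoma 5 rose and 2 fell, and in soft tissue sarcoma 4 rose and 4 fell (medians 1.36 and -0.12). Of the falls, 1 in osteosarcoma and 2 in soft tissue sarcoma were of genes that reached the filter's level in NG2 cells alone. With a library left out, 1 to 4 rose in osteosarcoma, fewest without NG2 library 1. Twist1, a factor of crest mesenchyme and of mesoderm, was at 0.499 and 0.298 CPM in NG2 cells and at 19.8 to 31.2 CPM in the tumours, and rose 63.9-fold and 58.4-fold (adjusted p = 0.00521 and 0.00806, edgeR). Tfap2a, a factor of crest induction, was at 0.554 and 0.642 CPM in the NG2 libraries, 31.1 and 7.32 CPM in the osteosarcomas and 237 and 55.6 CPM in the soft tissue sarcomas, and rose 32.0-fold and 243-fold (adjusted p = 0.0249 and 0.0134, edgeR). Snai1 rose 2.82-fold and 3.96-fold (adjusted p = 0.0446 and 0.0251, edgeR). Ets1, which lymphocytes and endothelium also make, fell 13.6-fold and 10.0-fold (adjusted p = 0.00757 and 0.011, edgeR), and Pax7, also the marker of muscle satellite cells, had 0 counts in all 4 tumours and fell at least 152-fold and 168-fold (adjusted p = 0.0272 and 0.0291, edgeR).

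Of 8 melanocyte genes, another crest fate, 3 were tested and none passed in any comparison. Of 14 genes of the S100 family and their receptor Ager, 13 were tested; 2 fell in osteosarcoma and 4 rose in soft tissue sarcoma (medians 0.01 and 0.87). S100a6, which encodes calcyclin, went against S100b: it was at 96.8 and 145 CPM in the NG2 libraries and 5164 and 4190 CPM in the soft tissue sarcomas, a rise of 38.7-fold (adjusted p = 0.00846, edgeR). Of 9 tumour suppressors of Schwann cell tumours, Cdkn2a rose from 0.0277 and 0.0459 CPM to 13.9 and 7.68 CPM in the osteosarcomas and 47.1 and 40.0 CPM in the soft tissue sarcomas (adjusted p = 0.00419 and 0.0073, edgeR), and Eed, a Polycomb subunit, fell in osteosarcoma. No gene of any of these lists passed between the tumour types, where 0.0841% of all tested genes were higher and 0.0578% lower in soft tissue sarcoma.

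Markers of other cells that make the same genes were read beside them. The 9 oligodendrocyte markers summed to 1.22 and 1.31 CPM in the NG2 libraries and to at most 0.711 CPM in a tumour. Of the 9, 0 passed the filter. Mog led the sum in NG2 library 1 with 1.025 CPM, and Gpr17 in NG2 library 2 with 1.146 CPM. Neuron and axon markers summed to 53.5 and 119 CPM in the NG2 libraries, 7.26 and 20.2 CPM in the osteosarcomas and 462 and 1025 CPM in the soft tissue sarcomas. Stmn2, a tubulin-binding protein, carried these sums, with 50.6 and 106 CPM in the NG2 libraries, 0.588 and 3.73 CPM in the osteosarcomas and 319 and 952 CPM in the soft tissue sarcomas; it fell in osteosarcoma (adjusted p = 0.0253, edgeR) and did not pass in soft tissue sarcoma (adjusted p = 0.0763, edgeR). Of the 8 tested, 2 rose and 1 fell in osteosarcoma, and 3 rose in soft tissue sarcoma, beside the rise of Gap43. Some of the 8 reached the filter's level only in tumours, so they could enter the test only by being high there. Perineurial markers summed to 53.1 and 47.8 CPM in the NG2 libraries, 19.9 and 19.1 CPM in the osteosarcomas and 155 and 298 CPM in the soft tissue sarcomas, where the glucose transporter Slc2a1, made by many cells, gave 132 and 291 CPM; Itgb4 and Cldn1 did not pass there and Lypd2 was not tested. Dendritic cell markers summed to 3723 and 1606 CPM in NG2 cells and to at most 21.1 CPM in a tumour, but Ccr7, which lymphocytes also make, gave 3654 and 1522 CPM of this; Flt3 stood at 28.0 and 21.6 CPM in the NG2 libraries and at 0.0569 to 2.16 CPM in the tumours. The part of these cells in the results was not tested.

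**Figure D4:**
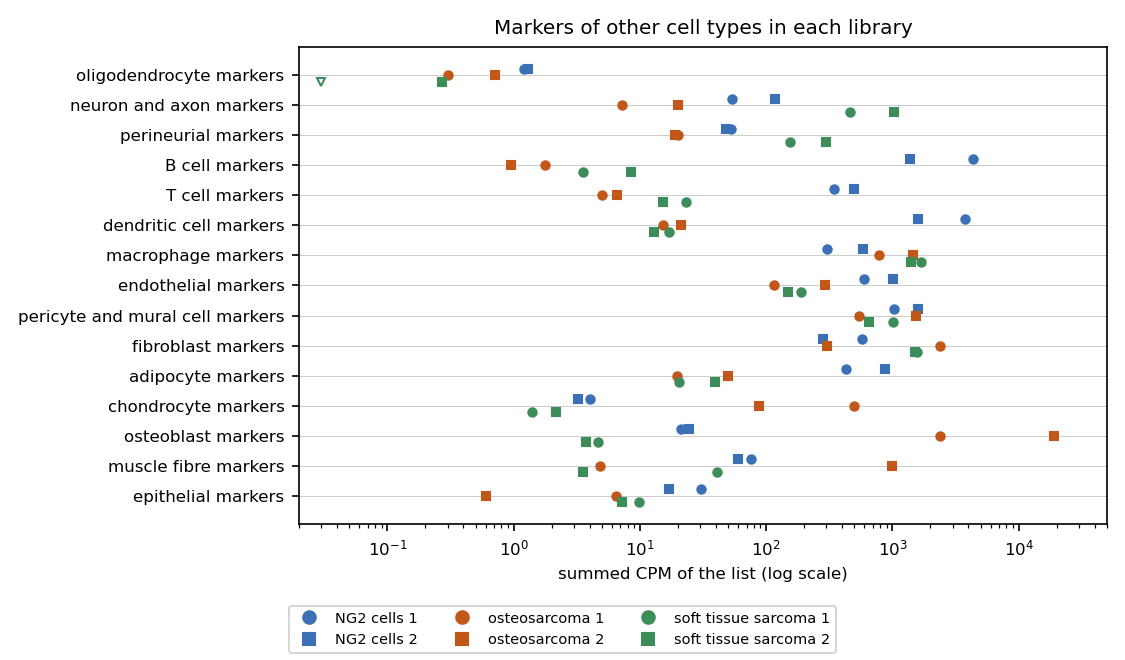
Summed CPM (log axis) of marker lists of other cell types in each library, by group colour, with circles for replicate 1 and squares for replicate 2; the open triangle at the left edge is a sum of 0. B cell, T cell and dendritic cell markers are high in the NG2 libraries, muscle fibre markers in osteosarcoma 2, and oligodendrocyte markers are at or under 1.31 CPM in every library.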

How the data were processed

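Polyadenylated RNA of 6 samples was measured by RNA sequencing. Per the labels' protocols, cDNA was primed from oligo(dT), made by template switching and amplified by PCR, so reads are not independent molecules, and intervals and floors cover counting error only. The deposited values were the authors' raw read counts per Ensembl gene. The tools named, per the submitters' processing notes, were HTSeq, STAR, DESeq2, cutadapt, Trim Galore and FastQC, and the builds mm10 and GRCm38; versions and the strand setting are not given in the sources used here. Reads assigned to no gene, 19.5% to 33.2% of a library relative to all reads tallied, were left out.

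From these counts, edgeR 4.0.16 in R 4.3.3 tested all genes that passed filterByExpr (min.count 10, min.total.count 15; 19024 genes) with TMM scaling and quasi-likelihood F tests, in 1 model of the 3 groups with 3 residual degrees of freedom. A gene was called at an adjusted p under 0.05 (Benjamini-Hochberg over all tested genes), and rose and fell refer to these. CPM are counts over the TMM-scaled library size, and the SE is the size of the log2 fold change over the square root of F. Folds against 0 counts are bounds from 3 counts over the group. The test was tried on simulated counts. An exact permutation test of 2 against 2 libraries cannot go under 0.333. Positions and exon lengths came from GENCODE M21, which held 36723 of the gene IDs, and promoters from RefSeq (GRCm38.p6).

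The 8 genes and all lists were chosen with earlier results of these data known. Named were the 8 genes, up to 4 called genes per list and comparison in order of p, and for each of the 8 its nearest genes by profile; Adgrg6 and Ntrk2 in soft tissue sarcoma, and Nrg3 and Erbb4 were added after their values were seen. Some listed genes that enter the counts are not reported here by name. Alternatives were no filter, RLE and upper quartile scaling, robust estimation, DESeq2 1.42.0, models of 2 groups, a replicate block, and leaving out each library.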

Additional observations from a re-analysis of the deposited data

How the results depend on the processing

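The number of the 8 genes called in osteosarcoma against NG2 cells was 3, and 1 to 5 with a library left out: 1 without NG2 library 1 and 5 without osteosarcoma 2. In soft tissue sarcoma it was 4, and 0 to 6 with a library left out: 1 without either NG2 library and 0 without either soft tissue sarcoma, where edgeR called 0 genes in all (4611 and 4372 at an unadjusted p under 0.05, 4 of the 8 among them in each); DESeq2 called 6 and edgeR in a model of the 2 groups 6. Of the 4 calls in soft tissue sarcoma, Mbp was kept without either NG2 library. Between the tumour types DESeq2 called 2 of the 8 and edgeR 0. The replicate block gave 2, 3 and 0 of the 8, with Sox10 in soft tissue sarcoma at an adjusted p of 0.0529 by edgeR; the labels do not say that replicate numbers pair samples, and deviations of same-numbered libraries correlated at 0.049, -0.00277 and -0.0864. Over all genes, edgeR called 4086 in osteosarcoma (6828 with DESeq2, 1908 in a model of 2 groups, 2660 with the replicate block, 1343 to 3542 with a library left out), 3671 in soft tissue sarcoma (6416 with DESeq2, 2209 with the replicate block, 0 to 5038 with a library left out) and 27 between the tumour types (409 with no filter, 1854 with DESeq2, 0 in a model of 2 groups, 8 with the replicate block, 0 to 305 with a library left out). With a library left out, the log2 fold change in osteosarcoma ran from -3.41 to 0.11 for S100b and from -6.90 to 0.78 for Ngfr, which was 0.08 without NG2 library 2. Between the tumour types it ran from -0.53 to 1.67 for Erbb3 (-0.03 without soft tissue sarcoma 1), from -3.69 to 4.01 for Ngfr, from -0.59 to 0.28 for Prx and from -0.92 to 0.10 for Cnp. RLE scaling, upper quartile scaling and robust estimation changed no call of the 8. Causes were not tested. Depth limits Sox10 and Foxd3 in the tumours, where 3 counts amount to 0.0503 to 0.107 CPM per library.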
